A study of Mus musculus with 12 samples.

Results

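Lgr4 is a receptor for R-spondins, and the probes described here are those of Lgr4 and of 9 other genes of the R-spondin and Wnt pathway: Lgr5, Lgr6, Znrf3, Rnf43, Lrp5, Lrp6, Ctnnb1, Lef1 and Axin2. These 10 genes had 15 probes among the 55681 probes of the array, and every probe was kept separate. Lgr4 was selected on measured values of these same arrays, namely its limma adjusted p under 0.05 between IL-10+ and IL-10- cells of control mice. Its values in that comparison, in the average over both kinds of mice, in the difference between them and between HDM and control mice within IL-10+ cells, all of which use the IL-10+ control arrays, are therefore a description with no test. The other 9 genes were chosen for their place in the pathway.

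The arrays measured spleen B cells of female Balb/c mice that were either controls or had an allergic airway disease to house dust mite (HDM). All cells were cultured for 2 days with a CD40 agonist, which mimics T cell help, and received lipopolysaccharide (LPS) for the final 5 hours. An IL-10 secretion assay and flow cytometry then separated B cells that released IL-10 (IL-10+) from those that did not (IL-10-). The groups were IL-10+ HDM, IL-10- HDM, IL-10+ control and IL-10- control, with 3 arrays each, all carrying the same CD40 agonist and LPS treatment. Nothing in the labels tells separate mice from repeats of 1 culture, so the spread behind every p-value here may be partly technical. In such sorted bulk samples, fewer cells of a type and less RNA per cell cannot be told apart.

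R-spondins are secreted proteins that bind LGR receptors. The bound pair draws in ZNRF3 and RNF43, membrane ubiquitin ligases that otherwise remove Frizzled and LRP receptors from the cell surface, so that cells answer more strongly to Wnt ligands. Wnt binding to Frizzled and LRP5 or LRP6 stabilises beta-catenin, the product of Ctnnb1, which joins TCF and LEF factors such as LEF1 on target genes. Axin2, Rnf43, Znrf3 and Lgr5 are themselves widely used target genes of this pathway.

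What an array reports for a gene is the signal of a probe of 60 bases, so the probes that the results turn on are shown by the first 30 bases of each, 5′ to 3′. Lgr4 had 1 probe only, while Lgr6, Lrp6 and Lef1 had 2 each, at different places in the transcript.
Lgr4 probe A_55_P2408848: gctctgacatttccaaatttgttgaagtta
Lgr6 probe A_52_P616580: tggagaagagctcctgcgactccacccaag
Lgr6 probe A_52_P75777: gtctctgttctacatatttggatctgacaa
Lrp6 probe A_55_P2041360: atcgagcgcacgtcacgggagcctcctcaa
Lrp6 probe A_55_P2118391: caaaggaaacaggaaaagaaaggcatcact
Lef1 probe A_51_P420400: gtacaggtcccagaatgacagctgcctaca
Lef1 probe A_55_P2076871: actgcaagcgccgacttccaaaaagaaagc
In the mm9 coordinates of the array files, the Lgr4 probe lay on the plus strand of chromosome 2 at chr2:109853567-109853626. The Lgr6 probes lay on the minus strand of chromosome 1, at chr1:136883782-136883841 for A_52_P616580 and chr1:136880538-136880597 for A_52_P75777. The Lrp6 probes lay on the minus strand of chromosome 6, at chr6:134404723-134404782 for A_55_P2041360 and chr6:134400440-134400499 for A_55_P2118391. Of the Lef1 probes on the plus strand of chromosome 3, A_51_P420400 was listed with the span chr3:130907851-130926012, far longer than the probe itself, and A_55_P2076871 at chr3:130926200-130926259. Whether these positions are coding or untranslated was not looked up, since no mm9 annotation was used here.

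Signals are given as levels, log2 of the processed signal over the 75th percentile of that array, so that 0 is the signal of that percentile. A probe counts as detected on an array where the scanner software marked it well above background. Levels of different probes were not set against each other, since each probe has its own binding strength. Probes detected on at least 3 of the 12 arrays were tested, which were 37643 over the whole array and 10 of the 15 described here, from 7 of the 10 genes. No probe of Lgr5, Znrf3 or Axin2 passed that filter. Lgr4 passed it through its IL-10+ arrays alone. Where the levels of a probe are said not to overlap between groups, the share of all tested probes that do so was not counted. Such a separation is a description from which nothing is read.

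Between 47.7% and 62.4% of spots were detected per array, and IL-10- HDM array 3 stood apart, its mean correlation across probes with the remaining arrays being 0.742, where theirs ran from 0.841 to 0.879. The sort itself was visible in Il10, which was higher in IL-10+ cells by 8.61 ± 1.19 in HDM mice (log2 fold change ± SE, limma adjusted p = 0.0261) and by 6.56 ± 1.19 in control mice (adjusted p = 0.217). Its level was 6.89, 6.97 and 6.42 in IL-10+ HDM cells, against -0.09, -0.05 and -5.43 in IL-10- HDM cells, where array 3, the one that stood apart, did not detect it. The B cell markers Cd79a, Cd79b, Ms4a1, Cd22, Pax5, Blk and Ebf1 each had a probe that was detected on every array. All 6 IL-10+ arrays and 2 IL-10- control arrays lay on slide 1, and the third IL-10- control array and all 3 IL-10- HDM arrays on slide 2, so in HDM mice slide and sort coincide.

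Lgr4 was detected on all 6 IL-10+ arrays and on none of the 6 IL-10- arrays. In HDM mice, its level was -3.89, -3.29 and -3.27 in IL-10+ cells, against -6.55, -6.46 and -6.11 in IL-10- cells. In control mice, it was -2.27, -2.79 and -2.52 in IL-10+ cells, against -5.89, -6.12 and -6.57 in IL-10- cells. Every IL-10+ array was thus above every IL-10- array in both kinds of mice, and in control mice Lgr4 was selected on this difference. The share of all tested probes that separate so was not counted, so nothing is read from the separation. The width of the gap was not measured, since no IL-10- array detected the probe. In HDM mice, IL-10+ array 1 was at -3.89 and the lowest detected signal of IL-10- array 3 was -3.99. As processed signals before scaling, the HDM arrays read 16.6, 24.1 and 25.4 units in IL-10+ cells, against 2.78, 2.97 and 3.17 in IL-10- cells. The control arrays read 45.9, 33.5 and 44.4 units in IL-10+ cells, against 3.82, 3.79 and 2.93 in IL-10- cells. The IL-10- readings were all within the background, so they bound the level from above and do not measure it.

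**Figure D1:**
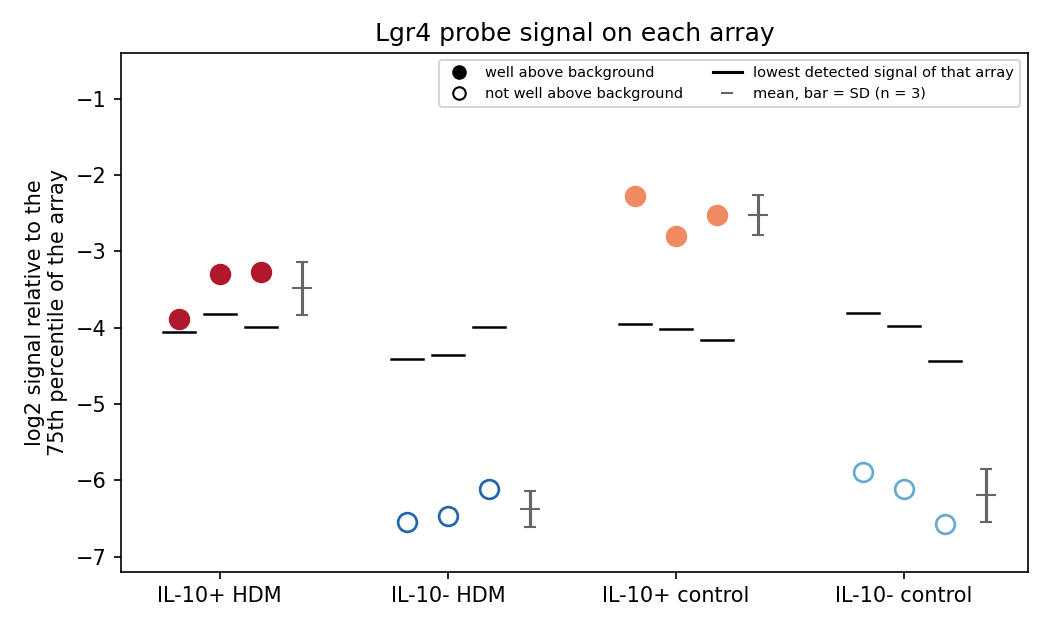
Level of the Lgr4 probe on each of the 12 arrays (log2 signal relative to the array's 75th percentile) by group, with filled points where it was well above background, open points where it was not, a black line at the lowest detected signal of that array, and the mean ± SD of each group (n = 3). The 6 IL-10+ arrays sit between -3.89 and -2.27, above their lines, and the 6 IL-10- arrays between -6.57 and -5.89, below theirs.

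In HDM mice, Lgr4 passed the test when the spread was estimated over all 12 arrays, and missed it when the 6 HDM arrays were fitted alone. The means were -3.49 ± 0.35 in IL-10+ cells and -6.37 ± 0.23 in IL-10- cells (SD, n = 3 each). The log2 fold change was 2.89 ± 0.35 (SE), with a limma adjusted p of 0.0150 over all 37643 probes. The difference itself uses none of the arrays that Lgr4 was selected on, but its SE is pooled with the control arrays, and Lgr4 entered the test only through its IL-10+ arrays. Fitted on the 6 HDM arrays alone, an alternative chosen after seeing the data, the difference had an SE of 0.38 and an adjusted p of 0.0634, and with the filter on dim probes also dropped an SE of 0.34 and an adjusted p of 0.0619. As no IL-10- array detected the probe, the fold is a bound on the means. On average Lgr4 was at least 1.70-fold higher in IL-10+ than in IL-10- HDM cells, taking each IL-10- array at its lowest detected signal. The bound makes no allowance for the spread between arrays. On IL-10+ HDM array 1 the Lgr4 level of -3.89 was only just above that array's lowest detected signal of -4.06. Of all tested probes, 0.197% were called in this comparison (74, of which 73 were higher in IL-10+ cells; the count fell to 3 when array 2 of IL-10+ HDM was left out, and was 392 when array 1 of IL-10- HDM was), and Lgr4 was the only one called of the 10 tested probes described here.

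The HDM call was also lost under settings that bear on dim signals, scaling and the slide. With normexp background correction, the log2 fold change was 0.48 with an adjusted p of 0.298, and with the deposited value table it was 2.09 with an adjusted p of 0.202. With slide as a block, the log2 fold change was 2.32 ± 0.62 with an adjusted p of 0.408, and the slide effect in that fit came from the IL-10- control arrays alone. With every dim value raised to the lowest detected signal, it was 0.76 with an adjusted p of 0.354. Without IL-10+ HDM array 2 or 3 it was 2.79 (adjusted p = 0.0871) or 2.78 (adjusted p = 0.0785). The call was kept with quantile normalization (2.36, limma adjusted p = 0.0156) and with the filter dropped over all 12 arrays (limma adjusted p = 0.0176). It was also kept with probes detected on at least 6 arrays (limma adjusted p = 0.0111) and with 1 probe per gene (limma adjusted p = 0.0128). Apart from leaving out 1 array, 4 of 11 settings kept it.

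In control mice, where Lgr4 was selected, it averaged -2.53 ± 0.26 in IL-10+ cells and -6.20 ± 0.35 in IL-10- cells (SD, n = 3 each). The log2 fold change was 3.67 ± 0.35 (SE), and within slide 1 alone it was 3.48 ± 0.38. The bound on the means here was at least 2.92-fold higher in IL-10+ cells. Of all tested probes, 0.0159% (6) were called in that comparison and 0.345% (130) in the average over both kinds of mice, and nothing is read from the place of Lgr4 among them. Over both kinds of mice, the averaged log2 fold change of Lgr4 was 3.28 ± 0.25 and the bound on the means at least 2.23-fold.

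Few probes had a detection pattern as clean as that of Lgr4. Detection on all 6 IL-10+ arrays and on no IL-10- array was found for 9 of the 37643 tested probes (0.0239%). Besides Lgr4 these were probes of Ptpn22 (a phosphatase that restrains antigen receptor signals), Nt5e (the ectoenzyme CD73), Il19 (a relative of IL-10), Csf2rb2 (a receptor subunit for IL-3), Slc48a1 (a heme transporter), Hlcs (which attaches biotin to carboxylases) and 2 probes named by position. The reverse pattern, all 6 IL-10- arrays and no IL-10+ array, was found for 4 probes (0.0106%). Since the control arrays were used to select Lgr4, its place in this count is a description. On the HDM arrays alone, 511 probes (1.36%) were detected on all 3 IL-10+ and on no IL-10- array, and of the member probes only Lgr4 was among them.

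Within IL-10+ cells, the Lgr4 levels of HDM and control mice are listed without a test. The 3 IL-10+ HDM arrays (-3.89 to -3.27) all lay below the 3 IL-10+ control arrays (-2.79 to -2.27). The share of all tested probes that separate in this way was not counted, so nothing is read from the separation. The log2 fold change of HDM over control was -0.96 ± 0.35 (SE), given as a description, since the IL-10+ control arrays are among those Lgr4 was selected on for being high. Of all tested probes, 0.00531% (2) were called here, and nothing is read from that for Lgr4. Within IL-10- cells no array detected Lgr4, and 0.0717% of all probes (27) were called between HDM and control mice. The IL-10 contrast of Lgr4 differed between HDM and control mice by -0.78 ± 0.49, given as a description, and limma called 0% of all probes for that difference (0 of 37643, 2444 of them at an unadjusted p under 0.05).

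Lgr4 is also known from epithelial, stromal and myeloid cells, and markers of such cells were read beside it. Of 12 epithelial and stromal markers, 4 to 6 were detected per array in IL-10+ HDM cells, 3 to 6 in IL-10- HDM cells, 3 to 4 in IL-10+ control cells and 4 to 8 in IL-10- control cells. Their log2 summed level was 3.06 to 4.43 in IL-10+ HDM cells, 3.77 to 4.68 in IL-10- HDM cells, 3.36 to 4.39 in IL-10+ control cells and 3.68 to 4.08 in IL-10- control cells. These ranges overlapped between IL-10+ and IL-10- cells in both kinds of mice, and the collagen gene Col1a1 and the pericyte receptor Pdgfrb were detected on 0 arrays. The epithelial adhesion gene Epcam, the keratin gene Krt18 and the endothelial gene Pecam1, which blood cells also express, were detected on all 12 arrays, with mean levels of 2.86, -0.59 and 2.51. The part of such cells in the Lgr4 values was not tested.

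Of 8 monocyte and macrophage markers, 6 were detected on each IL-10+ HDM array, 4 to 5 in IL-10- HDM cells, 5 to 7 in IL-10+ control cells and 6 to 7 in IL-10- control cells. Their log2 summed level was 8.77 to 8.81 in IL-10+ HDM cells, 8.54 to 8.97 in IL-10- HDM cells, 8.58 to 8.99 in IL-10+ control cells and 8.57 to 8.73 in IL-10- control cells, and the macrophage receptor Mrc1 was detected on 0 arrays. Itgam, Csf1r and Cd68 were detected on all 12. The mean level over the 8 markers was -0.89 to -0.75 in IL-10+ HDM cells, -1.61 to -1.41 in IL-10- HDM cells, -1.06 to -0.46 in IL-10+ control cells and -0.90 to -0.02 in IL-10- control cells. Both the number detected and the mean level were thus higher on every IL-10+ than on every IL-10- array in HDM mice and overlapped in control mice, while the summed level overlapped in both. Of all tested probes, the IL-10+ HDM arrays detected 83.7%, 88.6% and 85.6%, and the IL-10- HDM arrays 83.4%, 80.9% and 67.7%. Detection was thus higher in IL-10+ HDM cells over the whole array too, where the median log2 fold change was 0.23. The other marker lists are to be read beside these shares. The part of monocytes and macrophages in the Lgr4 result was not tested.

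Of 6 dendritic cell markers, 4 were detected on each IL-10+ HDM array, 2 to 3 in IL-10- HDM cells, 3 to 4 in IL-10+ control cells and 4 on each IL-10- control array. Their mean level was -1.51 to -1.11 in IL-10+ HDM cells, -2.69 to -1.83 in IL-10- HDM cells, -1.74 to -1.55 in IL-10+ control cells and -1.46 to -1.02 in IL-10- control cells. Their log2 summed level was 6.13 to 6.18 in IL-10+ HDM cells, 6.25 to 6.55 in IL-10- HDM cells, 5.88 to 6.29 in IL-10+ control cells and 5.90 to 6.44 in IL-10- control cells. The mean level was thus higher in IL-10+ cells in HDM mice and lower in control mice, without overlap, and the summed level was lower in IL-10+ cells in HDM mice and overlapped in control mice. Flt3 and Siglech were detected on all 12 arrays, and Clec9a and Itgax, the CD11c gene, on 0.

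Of 6 plasmablast markers, 4 to 5 were detected per array in IL-10+ HDM cells, 3 to 4 in IL-10- HDM cells, and 3 to 5 in IL-10+ control as well as in IL-10- control cells. Their mean level was -0.85 to 0.05 in IL-10+ HDM cells, -1.75 to -1.07 in IL-10- HDM cells, -0.93 to -0.10 in IL-10+ control cells and -2.23 to -0.74 in IL-10- control cells. Their log2 summed level was 6.44 to 6.70 in IL-10+ HDM cells, 7.03 to 8.26 in IL-10- HDM cells, 6.34 to 7.62 in IL-10+ control cells and 6.25 to 6.77 in IL-10- control cells. In HDM mice the mean level was thus higher and the summed level lower in IL-10+ cells, and both overlapped in control mice.

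Prdm1 and Irf4, regulators of plasma cell formation, were detected on all 12 arrays. Jchain was the one marker of these 4 lists to be called. It was at 1.33, 1.85 and 2.53 in IL-10+ HDM cells, against -6.00, -5.52 and -4.45 in IL-10- HDM cells, where no array detected it (limma adjusted p = 0.0153). In control mice it was at 0.88, 3.41 and 1.61 in IL-10+ cells, against -2.95, -6.24 and -4.30 in IL-10- cells, 2 of which detected it (limma adjusted p = 0.102). Jchain was detected on all 6 IL-10+ arrays, as Lgr4 was, but also on 2 IL-10- control arrays, where Lgr4 was not. Each IL-10+ array detected between 74.6% and 88.6% of all tested probes, so detection there is common. The part of dendritic cells and plasmablasts in the Lgr4 values was not tested.

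The other LGR receptors did not share the pattern. Lgr5, which marks epithelial stem cells, was detected on 1 array by each of its probes: A_52_P30169 on IL-10- control array 1 (level -3.48) and A_55_P2126192 on IL-10- HDM array 2 (level -2.39). On the other 11 arrays each probe stayed at the background, between -6.61 and -5.84. Both detections were thus in IL-10- cells, on different arrays and by different probes.

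Lgr6, also an R-spondin receptor, was detected on all 12 arrays by probe A_52_P616580. Its level was -1.73, -1.93 and -0.37 in IL-10+ HDM cells, against -2.00, -1.60 and -0.09 in IL-10- HDM cells. In control mice, it was -1.33, -2.25 and -0.66 in IL-10+ cells, against -0.18, -2.22 and 0.02 in IL-10- cells. The groups overlapped throughout, and the spread within each was wide.

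The log2 fold change of this Lgr6 probe in IL-10+ over IL-10- cells was -0.11 (95% interval -1.82 to 1.59) in HDM mice and -0.62 (-2.32 to 1.08) in control mice. Probe A_52_P75777 of Lgr6 was detected on 8 of the 12 arrays, with log2 fold changes of 0.56 ± 1.17 in HDM mice and -0.14 ± 1.17 in control mice. The levels of the 2 Lgr6 probes had a Pearson r of 0.50 over the 12 arrays, which share their 4 groups.

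**Figure D2:**
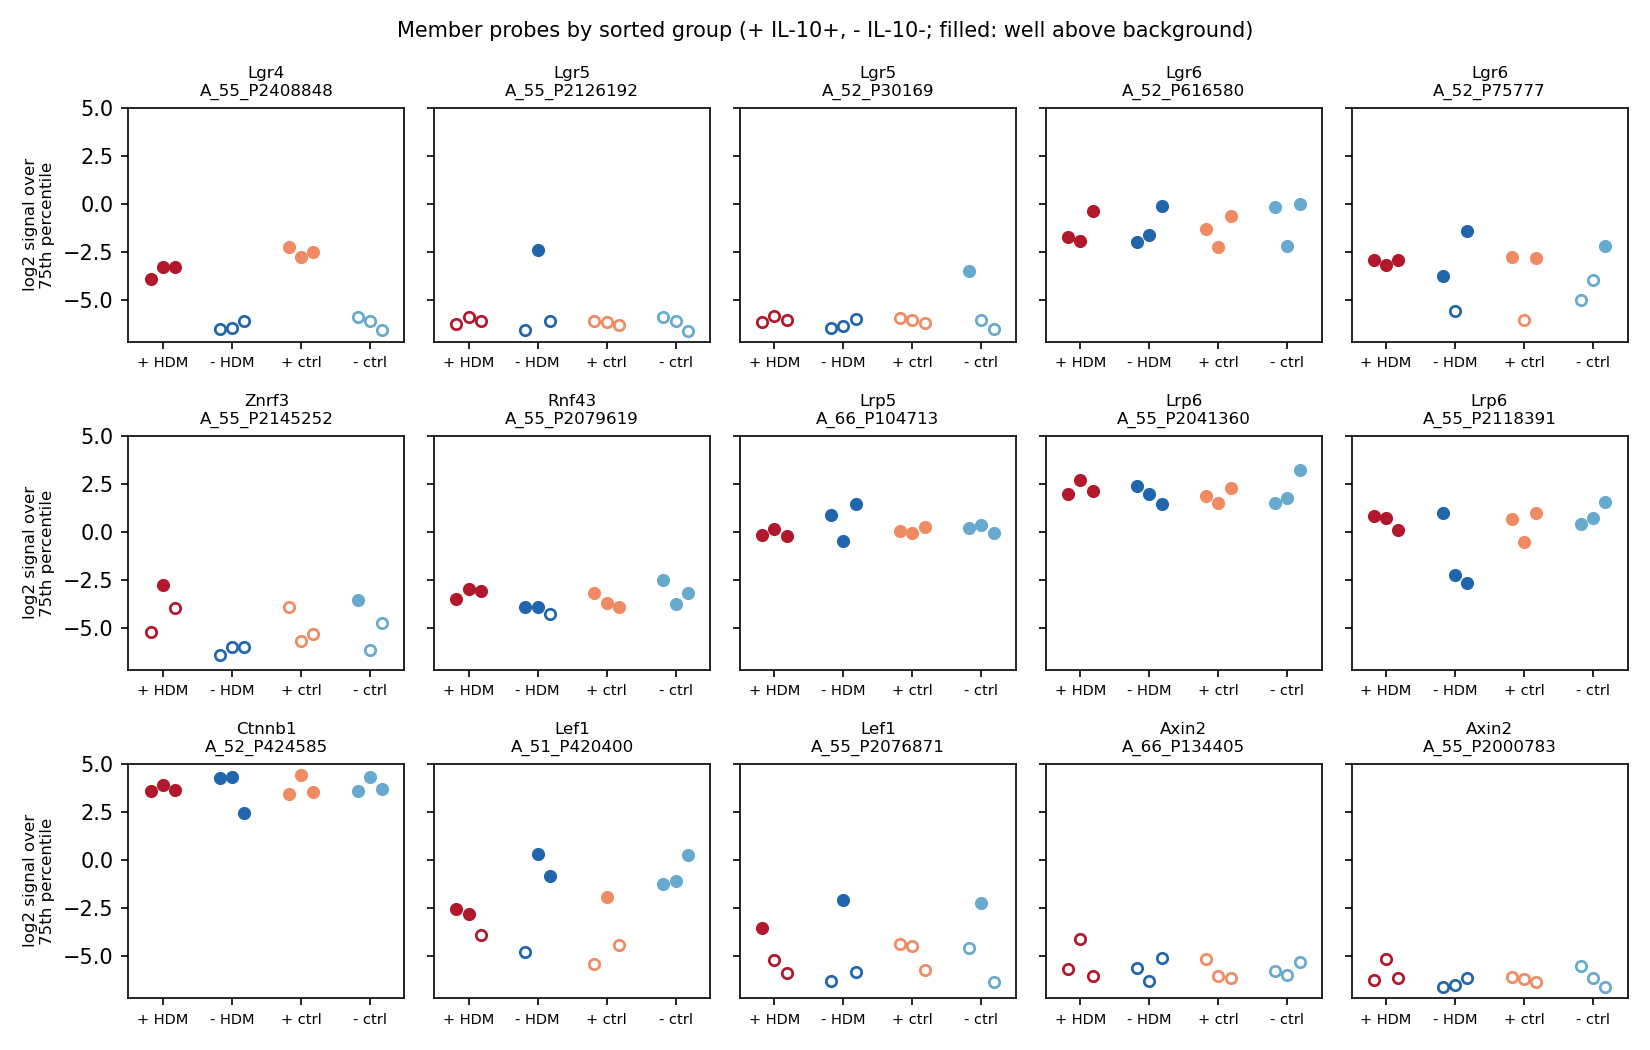
Level of each of the 15 probes (log2 signal relative to the array's 75th percentile) on the 12 arrays, by group, with filled points where the probe was well above background and open points where it was not. Lgr4 is filled on the IL-10+ arrays and open on the IL-10- arrays, while Lrp5, Lrp6, Ctnnb1 and 1 Lgr6 probe are filled on all 12 arrays and Axin2 on none.

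Of the membrane ubiquitin ligases that R-spondins and LGR receptors remove, Znrf3 was detected on 2 arrays, at -2.75 on array 2 of the IL-10+ HDM group and at -3.54 on array 1 of the IL-10- control group. Rnf43 was detected on 11 arrays, at -3.47, -2.96 and -3.07 in IL-10+ HDM cells, against -3.94, -3.93 and -4.26 in IL-10- HDM cells. Its control values were -3.20, -3.73 and -3.92 in IL-10+ cells, against -2.50, -3.75 and -3.19 in IL-10- cells. The IL-10+ HDM arrays all lay above the IL-10- HDM arrays, and the control groups overlapped. Nothing is read from that separation, since its share over all tested probes was not counted.

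Rnf43 did not pass the test in any comparison. Its log2 fold change was 0.88 ± 0.40 in HDM mice (limma adjusted p = 0.380) and -0.47 ± 0.40 in control mice (adjusted p = 1.00). Within IL-10- cells, HDM over control gave -0.90 ± 0.40 (limma adjusted p = 0.521). The difference between the IL-10 contrasts of HDM and control mice was 1.35 ± 0.56 (limma adjusted p = 0.758).

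The Wnt co-receptors Lrp5 and Lrp6 were detected on all 12 arrays. Lrp5 was at -0.14, 0.15 and -0.22 in IL-10+ HDM cells, against 0.86, -0.45 and 1.47 in IL-10- HDM cells. The control arrays gave 0.06, -0.07 and 0.27 in IL-10+ cells, against 0.20, 0.34 and -0.08 in IL-10- cells. Lrp5 varied most among the IL-10- HDM arrays, and the groups overlapped. Its log2 fold change was -0.70 ± 0.46 in HDM mice (adjusted p = 0.519) and -0.07 ± 0.46 in control mice (adjusted p = 1.00).

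The 2 Lrp6 probes differed in how even they were. Probe A_55_P2041360 was at 2.00, 2.72 and 2.13 in IL-10+ HDM cells, against 2.38, 1.96 and 1.45 in IL-10- HDM cells. On the control arrays, it was at 1.89, 1.53 and 2.30 in IL-10+ cells, against 1.51, 1.75 and 3.24 in IL-10- cells. Those groups overlapped, with a log2 fold change of 0.35 ± 0.51 in HDM mice and -0.26 ± 0.51 in control mice. Probe A_55_P2118391 was at 0.85, 0.71 and 0.11 in IL-10+ HDM cells, against 0.99, -2.23 and -2.64 in IL-10- HDM cells. The values in control mice were 0.67, -0.51 and 1.01 in IL-10+ cells, against 0.43, 0.72 and 1.54 in IL-10- cells. On this probe, IL-10- HDM arrays 2 and 3 lay below all others, while array 1 of that group was among the higher ones.

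For Lrp6 probe A_55_P2118391 the log2 fold change in HDM mice was 1.85 ± 0.86 (limma adjusted p = 0.392). Between HDM and control mice within IL-10- cells it was -2.19 ± 0.86 (limma adjusted p = 0.484). Without IL-10- HDM array 1, these became 2.99 (adjusted p = 0.0450) and -3.33 (adjusted p = 0.0369), so that array decided both calls. Leaving it out also raised the calls over all 37643 probes, from 74 to 392 and from 27 to 255. The change is thus not particular to Lrp6. The other Lrp6 probe gave -0.24 ± 0.51 between HDM and control mice within IL-10- cells. The probes lay 765 bases apart in the transcript, and their levels had a Pearson r of 0.57 over the 12 arrays.

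Ctnnb1, which encodes beta-catenin, was detected on every array. It was at 3.59, 3.88 and 3.62 in IL-10+ HDM cells, against 4.25, 4.33 and 2.45 in IL-10- HDM cells. In cells of control mice it was at 3.43, 4.45 and 3.54 in IL-10+ cells, against 3.59, 4.32 and 3.69 in IL-10- cells. The low value of 2.45 was on IL-10- HDM array 3, the array that stood apart. The log2 fold change was 0.02 (95% interval -1.17 to 1.21) in HDM mice and -0.06 (-1.25 to 1.13) in control mice. A change of up to about that size in either direction thus remains possible. These intervals are not adjusted over all probes and do not give the smallest change that would be called.

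**Figure D3:**
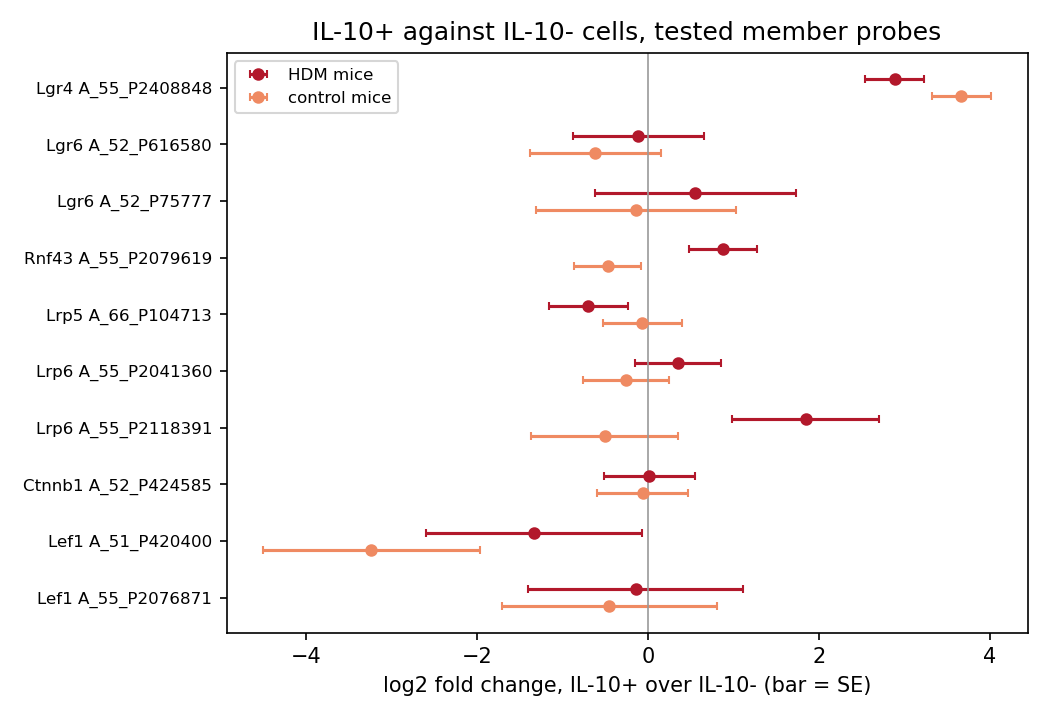
Log2 fold change of IL-10+ over IL-10- cells in HDM mice (dark) and control mice (light) for the 10 tested probes, with bars of 1 SE from limma. Lgr4 stands at 2.89 and 3.67, its IL-10- side being undetected, while the other 9 probes reach from -3.24 to 1.85 and none of them was called.

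Lef1, a DNA-binding partner of beta-catenin that is abundant in T cells and in early B cells, was called in no comparison. Probe A_51_P420400 was at -2.55, -2.82 and -3.94 in IL-10+ HDM cells, against -4.79, 0.31 and -0.82 in IL-10- HDM cells. Among control arrays it was at -5.42, -1.92 and -4.45 in IL-10+ cells, against -1.28, -1.08 and 0.28 in IL-10- cells. It was detected on 3 of 6 IL-10+ arrays and 5 of 6 IL-10- arrays. The control groups did not overlap, which is a description without its share over all probes, and in HDM mice IL-10- array 1 lay below all IL-10+ arrays.

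The Lef1 log2 fold change on this probe was -1.33 ± 1.27 in HDM mice (adjusted p = 0.646) and -3.24 ± 1.27 in control mice (limma adjusted p = 1.00). Averaged over both, it was -2.29 ± 0.90 (limma adjusted p = 0.475). Probe A_55_P2076871 of Lef1 was detected on 3 arrays (array 1 of IL-10+ HDM, array 2 of IL-10- HDM and array 2 of IL-10- control), and gave -0.14 ± 1.26 in HDM mice and -0.45 ± 1.26 in control mice. The probes had a Pearson r of 0.36 over the 12 arrays.

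T cell markers were read beside Lef1. Of 9 such genes, Cd3e, Cd4, Cd8a, Lck and Thy1 were detected on every array, and 7 to 8 were detected per array in IL-10+ HDM cells, 6 to 8 in IL-10- HDM cells, 7 to 8 in IL-10+ control cells and 6 to 7 in IL-10- control cells. Their log2 summed level was 2.25 to 2.48 in IL-10+ HDM cells, 1.38 to 2.10 in IL-10- HDM cells, 1.72 to 2.47 in IL-10+ control cells and 2.08 to 2.70 in IL-10- control cells. The summed level was thus higher in IL-10+ cells in HDM mice and overlapped between the sorted groups in control mice. The part of T cells in the Lef1 values was not tested.

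Axin2, the most used reporter gene of Wnt signalling through beta-catenin, was detected on 0 arrays by both of its probes. Probe A_66_P134405 lay between -6.33 and -4.13, and probe A_55_P2000783 between -6.64 and -5.15. No difference in Axin2 between the groups was measurable at this signal.

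Taking the 9 tested probes other than Lgr4 together, limma called 0 in every comparison. At an unadjusted p under 0.05 there were 0 of 9 in HDM mice, where 13.2% of all tested probes were below it, 1 in control mice (4.14% of all) and 1 in their average (9.31%). For HDM over control there were 0 within IL-10+ cells (2.18%) and 2 within IL-10- cells (9.40%), and there was 1 in the difference of contrasts (6.49%). With Lgr4, 6 of the 10 tested probes were above 0 in HDM mice, with a median log2 fold change of 0.19 against 0.23 over all tested probes. In control mice 1 of 10, Lgr4 itself, was above 0, with a median of -0.36 against -0.04 over all probes. Nothing is read from these counts, since Lgr4 was selected in control mice and Lgr6, Lrp6 and Lef1 count with 2 probes each. The share of all tested probes above 0 was not counted.

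A wider set of 99 Wnt pathway genes was read from lists of ligands, receptors, inhibitors, cytoplasmic and nuclear factors and targets. Of their 138 probes, 95 from 67 genes were tested. The IL-10 contrast had 0 calls in HDM mice, in control mice and in their average, with 11, 4 and 8 probes at an unadjusted p under 0.05 in limma. These were 11.6%, 4.21% and 8.42% of the 95 probes, near the 13.2%, 4.14% and 9.31% of all tested probes. HDM against control mice had 0 calls, with 2 probes at an unadjusted p under 0.05 within IL-10+ cells and 11 within IL-10- cells, and the difference of contrasts had 0 calls and 6 such probes. These were 2.11%, 11.6% and 6.32%, against 2.18%, 9.40% and 6.49% of all tested probes. The median log2 fold change of the 95 probes was 0.35 in HDM mice against 0.23 over all tested probes, and -0.01 in control mice against -0.04.

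**Figure D4:**
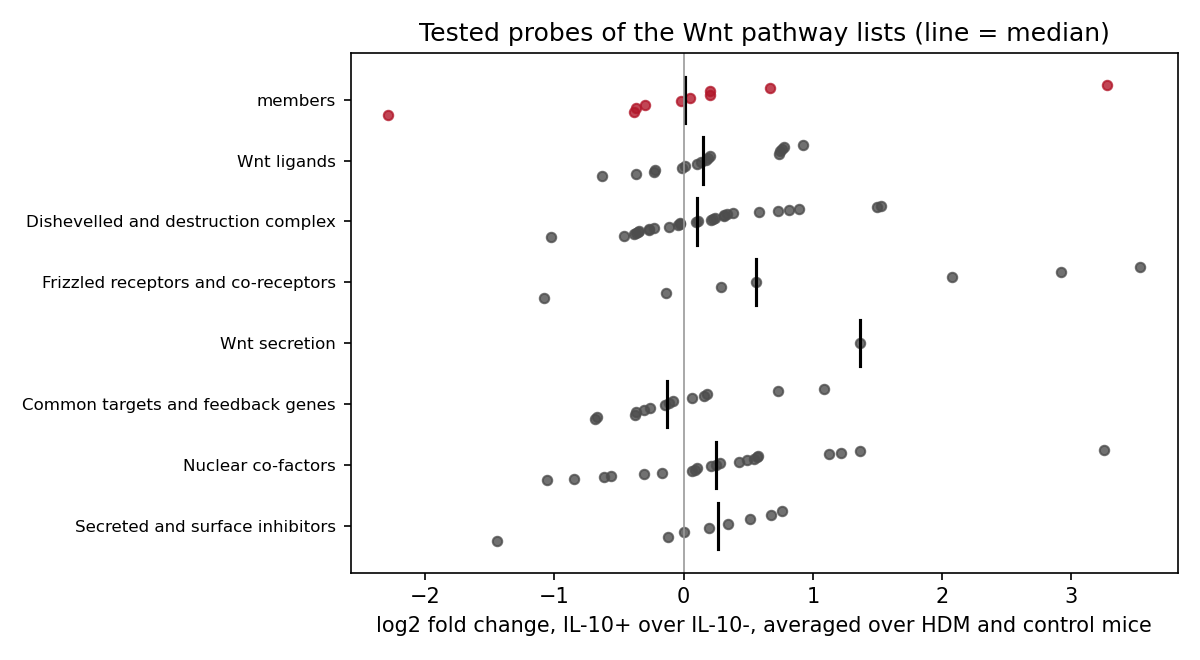
Log2 fold change of IL-10+ over IL-10- cells averaged over HDM and control mice, 1 point per tested probe, for the genes described here (red) and 7 lists of other Wnt pathway genes (grey), with a black line at each median. The red point at 3.28 is Lgr4 and that at -2.29 is Lef1, and none of the 95 grey probes was called.

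R-spondins, the ligands of LGR4, were all but undetected in the sorted cells. None of the 4 R-spondin genes had a tested probe. Rspo3 was detected on IL-10- HDM array 2 alone, at -0.62, the array on which 1 Lgr5 probe was also detected. Rspo2 and Rspo4 were detected on 0 arrays.

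Of 19 Wnt ligand genes, 10 were detected on all 12 arrays and 5 on none. Wnt6 lay between 0.27 and 1.24 over the 12 arrays, Wnt1 between -0.90 and 0.01 and Wnt5a between -1.73 and -0.71. Their averaged log2 fold changes were -0.22 ± 0.23 for Wnt6, -0.37 ± 0.21 for Wnt1 and 0.19 ± 0.25 for Wnt5a, all within 2 SE of 0. The Wnt1 values are those of probe A_55_P2001033, and Wnt1 probe A_55_P2106911 gave 0.13 ± 0.22. Wls, the carrier that takes Wnt proteins to the cell surface, was detected on every array, from -2.82 to 2.22, with an averaged log2 fold change of 1.36 ± 0.60 (limma adjusted p = 0.529). Porcn, which attaches the lipid that Wnt proteins need, was detected on 0 arrays.

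Receptors of the Frizzled group were less evenly detected: of 13 genes, 0 were detected on all arrays and 5 on none. Fzd5 probe A_66_P128199 was at -2.17, 0.54 and -0.77 in IL-10+ HDM cells, against 1.43, -2.03 and -6.04 in IL-10- HDM cells. The control levels were 0.22, 0.36 and -0.19 in IL-10+ cells, against -5.67, -4.67 and -2.55 in IL-10- cells. All 6 IL-10+ arrays and 3 of 6 IL-10- arrays detected it, with no overlap in control mice and overlap in HDM mice. The averaged log2 fold change was 2.92 ± 1.12 (limma adjusted p = 0.461), while probe A_51_P166456 of Fzd5 gave -0.14 ± 0.60.

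Ryk, a Wnt receptor with a kinase-like domain, was at -0.72, -1.04 and -1.29 in IL-10+ HDM cells, against -4.63, -2.93 and -6.07 in IL-10- HDM cells. For control mice the levels were -1.06, -0.18 and -1.01 in IL-10+ cells, against -3.41, -2.87 and -6.57 in IL-10- cells. Every IL-10+ array lay above every IL-10- array, a description without its share over all tested probes. Of the 6 IL-10- arrays, 3 detected it, and the readings of -4.63, -6.07 and -6.57 were undetected. The averaged log2 fold change was 3.53 ± 0.70, and with an adjusted p of 0.0805 it was not called.

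Fzd6 was detected on all 3 IL-10+ HDM arrays (-2.08, -0.50 and -2.34), against none of the IL-10- HDM arrays (-6.56, -5.30 and -5.13). As a bound on the means, without allowance for their spread, it was at least 6.12-fold higher in IL-10+ than in IL-10- HDM cells. With a limma adjusted p of 0.223 it was not called. In control mice 1 array of each sort detected it, at -2.27 in IL-10+ cells and -1.26 in IL-10- cells, and the log2 fold change was 0.13 ± 1.14.

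The secreted and surface inhibitors showed no call. Notum, an enzyme that strips the lipid from Wnt proteins, lay between -0.28 and 0.52 on the 12 arrays, with an averaged log2 fold change of 0.19 ± 0.24. Kremen1, a receptor for the LRP antagonists of the Dickkopf family, gave -1.44 ± 0.89 on probe A_55_P2046149. That probe reached its highest level, 2.55, on IL-10- HDM array 3, and Kremen1 probe A_65_P01415 gave 0.76 ± 0.81. Sfrp5, a secreted Frizzled-like antagonist, gave 0.01 ± 0.28.

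In the cytoplasm, 14 of the 17 genes for Dishevelled and the beta-catenin destruction complex were detected on all 12 arrays, and 28 of their 29 probes were tested. Csnk1d and Csnk1a1, which encode casein kinases, had averaged log2 fold changes of -0.03 ± 0.24 (probe A_52_P477369) and -0.03 ± 0.22 (probe A_52_P339722). Their other tested probes gave -1.03 ± 0.45 for Csnk1d (A_55_P1970229, limma adjusted p = 0.530) and -0.27 ± 0.28 for Csnk1a1 (A_51_P453856). Axin1, the scaffold of the complex, had -0.36 ± 0.31. Of these values, all but that of Csnk1d probe A_55_P1970229 lay within 2 SE of 0.

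Among nuclear co-factors, the Groucho family co-repressors Tle3, Tle4 and Tle2 were detected on all arrays, with averaged log2 fold changes of -0.31 ± 0.36, 0.11 ± 0.34 and -0.16 ± 0.28. Of the common targets, Cd44, an adhesion receptor, had 0.16 ± 0.21 and Nkd2, a feedback inhibitor of Dishevelled, -0.08 ± 0.24. The Cd44 value is that of probe A_55_P2166501, and its other tested probes gave -0.30 ± 0.30, 0.18 ± 0.53 and 0.73 ± 0.38. Myc, a growth regulator with many inputs besides Wnt, was at 5.00, 5.04 and 5.15 in IL-10+ HDM cells, against 5.87, 5.72 and 6.41 in IL-10- HDM cells. In control mice Myc was at 4.77, 5.68 and 4.99 in IL-10+ cells, against 5.39, 5.99 and 5.38 in IL-10- cells. The HDM groups did not overlap and the control groups did. The averaged log2 fold change of Myc was -0.69 ± 0.26 (limma adjusted p = 0.457).

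The gene symbols whose level ran most like that of Lgr4 over the 12 arrays were Csf2rb2 (Pearson r = 0.95), Cd300lf (0.94), Jchain (0.94), Psmb10 (0.93) and Tanc2 (0.93), out of 13754 symbols. Csf2rb2 encodes a receptor subunit for IL-3, Cd300lf an inhibitory surface receptor, Jchain the joining chain of secreted IgM and IgA, and Psmb10 a subunit of the immunoproteasome. For Lgr4 the arrays fall into separate IL-10+ and IL-10- clusters, and that gap enters these correlations, which are given as a description. Within the 6 IL-10+ arrays, r was 0.28 for Csf2rb2, 0.26 for Cd300lf, -0.08 for Jchain, 0.57 for Psmb10 and 0.60 for Tanc2. Within the 6 IL-10- arrays, r was 0.71, 0.92, 0.48, -0.62 and 0.80 in the same order. There Lgr4 was undetected, so these values rest on background signal. Of the tested probes described here, the most unlike Lgr4 was Lef1 A_51_P420400, with a Pearson r of -0.65 and a Spearman rho of -0.62 over the 12 arrays.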

How the data were processed

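Spleen B cells in 4 groups of 3 samples were measured on 12 one-colour arrays (Agilent design with mm9 annotation), from Cy3-labelled cDNA made by SuperAmp, a global PCR amplification, per the labels' protocols. Per the file headers, the deposited scanner files hold intensity values: the processed signal, which has the spatial background surface subtracted and is detrended within the array, the mean spot signal and the local background. They also hold flags per spot. The deposited value table holds a ratio of each processed signal to its array's median, found by recomputation (largest deviation 0.00077%).

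Levels are log2 processed signals over the 75th percentile of gene spots on the array, averaged over the spots of a probe without an outlier flag. Probes well above background on at least 3 of 12 arrays were kept, and 87 probes with only outlier spots on some array were left out. The comparisons were fitted by lmFit and eBayes of limma 3.58.1 (R 4.3.3; 1 mean per group, 8 residual degrees of freedom), with Benjamini-Hochberg adjustment over 37643 probes and calls at an adjusted p under 0.05. The fit was tested on simulated data. Arrays give no counts, so the number of arrays limits the precision.

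The genes and lists were chosen with earlier results of these data known. Named genes were all probes of the 10 genes, any called gene of the other Wnt lists or otherwise the up to 3 per list with the highest mean level, Il10 for the sort, markers detected on all or no arrays, and the 5 symbols most like Lgr4 by Pearson correlation. 1 marker that this rule names is not reported here. Other probes of these genes, Fzd9, Tle1 and genes sharing the detection pattern of Lgr4 were named after their values were seen. Bounds set an undetected group at the higher of each array's lowest detected signal and the probe's own. They hold for the group means of these arrays and make no allowance for the spread between arrays. Replicate numbers in the titles did not pair the samples: deviations of same-numbered arrays correlated between -0.12 and 0.12, with 2 of 18 pairs over 0.1. Alternatives changed the background correction, normalization, filter, floor on dim values, probe choice, slide, replicate block and each array in turn. Fits on the 6 HDM arrays alone were added after seeing the data.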

Additional observations from a re-analysis of the deposited data

How the results depend on the processing

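The Lgr4 fold change between IL-10+ and IL-10- cells was positive under every alternative run, in HDM and in control mice. In HDM mice (2.89 as reported) its call was lost with normexp background correction (0.48, adjusted p = 0.298), with the deposited value table (2.09, adjusted p = 0.202), with dim values set to the lowest detected signal (0.76, adjusted p = 0.354) and with slide as a block (2.32, adjusted p = 0.408), so that 0 of the 10 tested probes were called under each. It was also lost with the 6 HDM arrays alone (2.89, adjusted p = 0.0634) and with these and no filter on dim probes (2.89, adjusted p = 0.0619), 2 alternatives chosen after seeing the data, with 0 probes called under each. With the replicate block it was 2.89 (adjusted p = 0.0629), and 0 probes were called. No array correlated best with its own number in every other group (0 of 12), and the block moved the count over all probes to 28 from 74 in HDM mice and to 66 from 130 in the average. The Lgr4 call was kept in 4 of these 11 settings. They were quantile normalization (2.36), no filter over all 12 arrays, the filter of 6 arrays and 1 probe per gene. Leaving out each array gave 2.78 to 3.09 (adjusted p 0.0131 to 0.0871, called in 10 of 12) and 0 to 2 called probes, the second being Lrp6 without IL-10- HDM replicate 1. HDM against control mice within IL-10- cells had 0 to 1 called probes, 1 without that same array.

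In control mice (3.67), Lgr4 was at 0.80 with normexp, which adds an offset of 50 to signals of this size, at 1.55 with dim values raised, and at 3.48 to 3.82 without each array. The value table shifted the median of all probes in HDM mice to -0.57, against 0.23 as reported, and relative to that median Lgr4 was 2.66 under both.

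Over all probes, calls in HDM mice numbered 35 with normexp, 42 with quantile normalization, 6 with the value table, 42 with 1 probe per gene, 0 with slide as a block (2957 at an unadjusted p under 0.05), 118 and 114 in the 2 fits on HDM arrays alone, and 3 to 392 without each array (lowest without IL-10+ HDM replicate 2, highest without IL-10- HDM replicate 1). In the average they numbered 11 with the value table, 67 with 1 probe per gene, 0 with slide as a block (2674 at an unadjusted p under 0.05) and 51 to 276 without each array (the same 2 arrays at the ends). Counts in the other comparisons ranged over the alternatives from 0 to 11 in control mice (6), 0 to 4 for HDM in IL-10+ cells (2), 0 to 255 for HDM in IL-10- cells (27) and 0 to 22 for the difference (0). Of 1190 tested values of the described probes under alternatives, 113 had the other sign, called in neither setting. Dim signals limit Lgr4, Lgr5, Lgr6 on probe A_52_P75777, Znrf3, Rnf43, Lef1 and Axin2. By Spearman correlation the symbols most like Lgr4 were Krt222, Phyhd1 and Epb4.1l1 (0.94 each). The causes of these changes were not tested.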

Other observations

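Among Wnt pathway genes outside those described above, Tle1 and Fzd9 were singled out after their values were seen. Tle1 encodes a Groucho family co-repressor that B cells express. Its probe A_52_P330694 was at -0.71, -1.67 and -2.56 in IL-10+ HDM cells, against -6.59, -3.76 and -6.05 in IL-10- HDM cells. In control mice it was at -1.13, -0.70 and -1.17 in IL-10+ cells, against -1.73, -3.56 and -5.76 in IL-10- cells. All 6 IL-10+ arrays and 3 of 6 IL-10- arrays detected it, without overlap within either kind of mouse. The averaged log2 fold change was 3.25 ± 0.72, with a limma adjusted p of 0.119. The other 3 tested probes of Tle1 did not share this, with averaged log2 fold changes of 0.06 ± 0.98 (A_55_P1968355), 0.28 ± 0.88 (A_55_P1968362) and -0.62 ± 0.68 (A_66_P137556).

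Fzd9, a Wnt receptor, ran the other way in control mice. It was detected on none of the 3 IL-10+ control arrays (-6.22, -5.13 and -5.92), against all 3 IL-10- control arrays (-0.83, -2.63 and -3.98). As a bound on the means, without allowance for their spread, Fzd9 was at least 2.97-fold lower in IL-10+ cells (limma adjusted p = 0.900). In HDM mice it was detected on 1 IL-10+ array and 0 IL-10- arrays, with a log2 fold change of 1.12 ± 1.04. No call was made for either gene.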
